A study of Mus musculus with 4 samples.

Results

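The genes described here are 10 genes of the oxidative stress response and of metal binding in mouse astrocytes, the glial cells that supply neurons with antioxidants. They are Nfe2l2, Nqo1, Hmox1, Srxn1, Txnrd1, Gclc, Gclm, Slc7a11, Mt1 and Mt2, chosen by symbol from a deposited table of 54532 genes, and all 10 were found there. RNA was sequenced from cells given NC siRNA or Ptbp1 siRNA, with 2 libraries per group and gene counts of 14557844 to 16009248 per library. A small interfering RNA (siRNA) directs the degradation of a matching transcript, and Ptbp1 encodes a splicing repressor of non-neuronal cells. The labels give the cells as astrocytes and name no strain, age, dose or time, and nothing in them tells whether libraries of 1 group are separate cultures. The p-values therefore measure the spread between these libraries alone, which may be technical and which the tests share in part across genes.

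NRF2, the product of Nfe2l2, is a transcription factor that is held in the cytoplasm by KEAP1 and degraded until oxidants or electrophiles release it. It then binds antioxidant response elements with a small MAF protein and raises genes for glutathione synthesis, thioredoxin recycling, quinone reduction and haem breakdown. Metallothioneins are small cysteine-rich proteins that bind zinc and copper, and their genes respond to zinc through metal response elements. Astrocytes are known for strong use of both systems.

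Ptbp1 was lower with Ptbp1 siRNA, and none of the 10 genes passed the test between the siRNAs. Levels below are normalised counts (CPM, counts scaled to a common library size with TMM factors) unless FPKM is named. Ptbp1 stood at 300.4 and 295 CPM in the NC siRNA libraries, against 203 and 196 CPM in the Ptbp1 siRNA libraries. Its log2 fold change was -0.58 (SE 0.063; adjusted p = 0.00127 by edgeR), and limma on log2(FPKM + 1) gave -0.57 with an adjusted p of 0.485, which did not pass. A call is an adjusted p under 0.05 in edgeR's quasi-likelihood test with Benjamini-Hochberg adjustment over the 16368 genes tested. Of those, 4 genes were called (0.0244%), 1 higher (0.00611%) and 3 lower (0.0183%) with Ptbp1 siRNA. Among the 10 genes 0 were called, and 0 had an unadjusted p under 0.05 where 3.98% of all genes did. DESeq2 also called 0 of the 10, with 0 at an unadjusted p under 0.05, a level that 151 of 29505 genes (0.512%) reached in that fit. Limma called 0 of all 16368 genes and so none of the 10, and 1 of the 10 (Mt2) had an unadjusted p under 0.05, where 4.67% of all genes did.

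The 10 genes spanned a wide range of levels. Per length (FPKM, which the authors scaled to gene length and library size), the order from the highest was Mt1, Hmox1, Nfe2l2, Txnrd1, Gclc, Srxn1, Gclm, Mt2, Nqo1 and Slc7a11. Mt1 had a mean of 160.5 FPKM over the 4 libraries and lay above 98.7% of the genes tested. Hmox1 followed at 132 FPKM, Nfe2l2 at 97.0 FPKM and Txnrd1 at 53.2 FPKM. Gclc had 24.5, Srxn1 17.9 and Gclm 10.6 FPKM. The lowest 3 were Mt2 at 7.69 FPKM, Nqo1 at 2.65 FPKM and Slc7a11 at 1.19 FPKM, and Slc7a11 lay above 22.2% of the genes tested. The ranges of neighbours in this order did not overlap over the 4 libraries. Mt1 spanned 151 to 170.2 FPKM and Hmox1 123 to 147 FPKM. The FPKM use the summed exon length of every annotated transcript of a gene, so the order depends on that annotation.

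**Figure D1:**
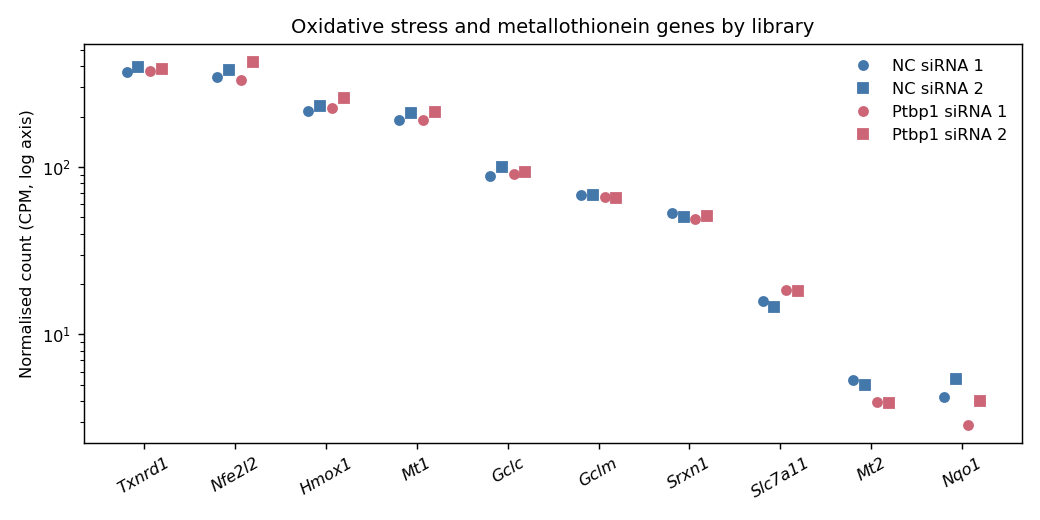
Normalised count (CPM, log axis) of the 10 genes in each of the 4 libraries, ordered by mean CPM; blue marks NC siRNA, red Ptbp1 siRNA, circles library 1 and squares library 2. Txnrd1 and Nfe2l2 lie at 332 to 422 CPM, Nqo1 and Mt2 at 2.89 to 5.40 CPM, and the groups do not overlap for Gclm, Slc7a11, Mt2 and Nqo1.

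Nfe2l2 (ENSMUSG00000015839; GRCm38 chromosome 2, 75675513 to 75704641, minus strand), the gene of NRF2 itself, had a log2 fold change of 0.06. Its counts were 5535 and 5706 with NC siRNA and 4819 and 6296 with Ptbp1 siRNA, or 345 and 381 against 332 and 422 CPM. Ptbp1 siRNA 1 was the lowest of the libraries and Ptbp1 siRNA 2 the highest, so both ends of the range lay in the same group. The standard error was 0.090 and the 95% interval ran from -0.13 to 0.25, a fold of 0.911 to 1.19. Without Ptbp1 siRNA 2 the log2 fold change was -0.13, and without NC siRNA 1 it was -0.015. It was 0.13 without NC siRNA 2 and 0.22 without Ptbp1 siRNA 1.

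Hmox1 (ENSMUSG00000005413; chromosome 8, 75093621 to 75100589, plus strand) encodes the inducible haem oxygenase, which opens the haem ring and frees its iron. It stood at 217 and 233 CPM in the NC siRNA libraries, against 224 and 258 CPM in the Ptbp1 siRNA libraries. The groups overlapped, and Ptbp1 siRNA 2 was the highest here as well. The log2 fold change was 0.10 (SE 0.074, 95% interval -0.05 to 0.26), and it was -0.0011 without Ptbp1 siRNA 2. Hmox1 is also known from macrophages, and the summed level of 7 markers of microglia and macrophages, all with counts in every library, was 847 and 861 CPM in the NC siRNA libraries, against 854 and 822 CPM in the Ptbp1 siRNA libraries. Most of that sum was Lyz2, at 663 and 672 against 666 and 649 CPM (log2 fold change -0.02). Of the 7 markers 0 were called, 5 had a negative log2 fold change and the median was -0.19, with Cx3cr1 at -0.46 and not overlapping between the groups, Aif1 at -0.31 and Itgam at -0.23. The part of those cells in the Hmox1 level was not tested, and in these bulk samples fewer cells of a type and less RNA per cell cannot be told apart.

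Nqo1 (ENSMUSG00000003849; chromosome 8, 107388225 to 107403206, minus strand) encodes a quinone reductase and is a widely used reporter of NRF2 activity. It was scarce, with 68 and 81 counts after NC siRNA and 42 and 60 counts with Ptbp1 siRNA. These are 4.24, 5.40, 2.89 and 4.03 CPM. Both NC siRNA libraries lay above both Ptbp1 siRNA libraries, but the nearest values were 4.24 and 4.03 CPM. Exact Poisson 95% intervals, which cover counting error only, ran from 3.29 to 5.38 CPM for NC siRNA 1 and from 3.07 to 5.18 CPM for Ptbp1 siRNA 2. The log2 fold change was -0.47 (SE 0.27, 95% interval -1.05 to 0.10), which did not pass (edgeR adjusted p = 1.00, unadjusted p = 0.0994). Its value was -0.26 without Ptbp1 siRNA 1 and -0.73 without Ptbp1 siRNA 2.

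Nqo1 had the widest spread of the 10, 0.90 on the log2 scale between the highest and the lowest library. Among 10143 protein-coding genes with a mean of at least 10 CPM, the nearest in pattern over the 4 libraries was Fam189a2. Its centred log2 CPM differed from that of Nqo1 by a root mean square of 0.055. Nmnat3 and Ncald followed at 0.10 and 0.13. With 4 libraries such likeness describes these libraries and carries no test.

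Srxn1 and Txnrd1 act in thioredoxin and peroxiredoxin recycling, and their values barely differed between the groups. Srxn1 (ENSMUSG00000032802; chromosome 2, 152105516 to 152111376, plus strand), the gene of sulfiredoxin, which repairs over-oxidised peroxiredoxins, stood at 52.9 and 50.2 CPM in the NC siRNA libraries, against 49.1 and 50.8 CPM in the Ptbp1 siRNA libraries. Its log2 fold change was -0.05 (SE 0.080). Txnrd1 (ENSMUSG00000020250; chromosome 10, 82833951 to 82897712, plus strand), the cytosolic thioredoxin reductase, stood at 367 and 393 CPM in the NC siRNA libraries, against 372 and 384 CPM in the Ptbp1 siRNA libraries. Its log2 fold change was -0.0075 (SE 0.063), and the 95% interval of -0.14 to 0.13 was the narrowest of the 10. The NC siRNA libraries were the lowest and the highest of the 4 for Txnrd1. Its fold change was positive without NC siRNA 2, at 0.04, and without Ptbp1 siRNA 1, at 0.016.

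Glutathione synthesis is represented by the subunits of glutamate-cysteine ligase, its rate-limiting enzyme. Gclc (ENSMUSG00000032350; chromosome 9, 77754535 to 77794485, plus strand), the catalytic subunit, stood at 87.8 and 99.4 CPM in the NC siRNA libraries, against 90.4 and 93.3 CPM in the Ptbp1 siRNA libraries. Both Ptbp1 siRNA values lay between those of NC siRNA, with a log2 fold change of -0.03 (SE 0.076), which turned to 0.066 without NC siRNA 2. Gclm (ENSMUSG00000028124; chromosome 3, 122245557 to 122270732, plus strand), the modifier subunit, stood at 67.9 and 67.6 CPM in the NC siRNA libraries, against 66.2 and 65.4 CPM in the Ptbp1 siRNA libraries. The groups did not overlap, but the log2 fold change was only -0.04 (SE 0.073), and its range over the 4 libraries, 0.054 on the log2 scale, was the smallest of the 10. Per library the count of Gclc was 1.29 and 1.47 times that of Gclm with NC siRNA and 1.37 and 1.43 times with Ptbp1 siRNA, without correction for length. Of the exonic bases of Gclm, 3.88% lie in exons of the pseudogene Gm6061 on the same strand, which had 0 counts, and 3.92% of its 50-base stretches occur in other genes' transcripts, among them Ppia.

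Slc7a11 (ENSMUSG00000027737; chromosome 3, 49892526 to 50443614, minus strand), which encodes the cystine-glutamate exchanger xCT, had the lowest unadjusted p of the 10. Its counts were 253 and 218 with NC siRNA and 266 and 269 with Ptbp1 siRNA, or 15.8 and 14.5 against 18.3 and 18.1 CPM. Both Ptbp1 siRNA libraries lay above both NC siRNA libraries. The log2 fold change was 0.26 (SE 0.13, 95% interval -0.02 to 0.54), with an unadjusted p of 0.0628 and an edgeR adjusted p of 1.00. Its value lay between 0.20 and 0.32 with each library left out in turn. The Poisson intervals of neighbouring libraries overlapped, at 13.9 to 17.9 CPM for NC siRNA 1 and 15.96 to 20.3 CPM for Ptbp1 siRNA 2.

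The chain that pairs with xCT at the cell surface is encoded by Slc3a2, which also serves other transporters. Slc3a2 stood at 576 ± 17.5 CPM in the NC siRNA libraries, against 589 ± 1.79 CPM in the Ptbp1 siRNA libraries (mean ± SD, n = 2), a log2 fold change of 0.03 (SE 0.060). Its count was 35.7 and 40.5 times that of Slc7a11 with NC siRNA and 32.1 and 32.7 times with Ptbp1 siRNA. By likeness over the 4 libraries Dgat1, Btbd8 and Zmat1 were nearest to Slc7a11, with root mean square differences of 0.021, 0.022 and 0.022.

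**Figure D2:**
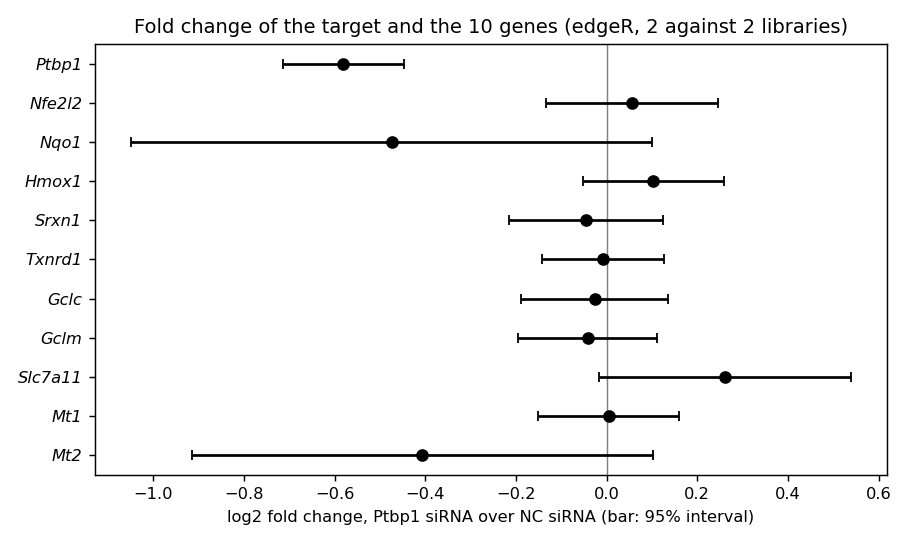
log2 fold change of Ptbp1 and the 10 genes, Ptbp1 siRNA over NC siRNA, with 95% intervals from edgeR (2 against 2 libraries). Ptbp1 lies at -0.58 with an interval below 0, and the intervals of all 10 genes include 0, with those of Nqo1, Mt2 and Slc7a11 the widest.

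Mt1 and Mt2, the metallothioneins found in most tissues, are neighbours on chromosome 8 with 5513 bases between them. Mt1 (ENSMUSG00000031765; 94179082 to 94180327, plus strand) stood at 192 and 209.6 CPM in the NC siRNA libraries, against 189 and 213 CPM in the Ptbp1 siRNA libraries. Library 1 was at the lower and library 2 at the higher value in each group, and the log2 fold change was 0.0047 (SE 0.073, 95% interval -0.15 to 0.16). Its sign turned without NC siRNA 1, at -0.06, and without Ptbp1 siRNA 2, at -0.08. Mt2 (ENSMUSG00000031762; 94172664 to 94173568, plus strand) had 86 and 75 counts with NC siRNA and 57 and 58 counts with Ptbp1 siRNA. These are 5.36 and 5.0 CPM against 3.93 and 3.89 CPM, and the groups did not overlap. The log2 fold change was -0.41 (SE 0.24, 95% interval -0.92 to 0.10), which did not pass (edgeR adjusted p = 1.00, unadjusted p = 0.109). It lay between -0.46 and -0.36 with each library left out in turn.

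The counts of these neighbours were far apart. Mt1 had 35.7 and 41.9 times the count of Mt2 with NC siRNA and 48.2 and 54.8 times with Ptbp1 siRNA. Mt3, the brain-enriched metallothionein upstream of both, stood near Mt1, at 209 and 242 CPM in the NC siRNA libraries, against 224 and 211 CPM in the Ptbp1 siRNA libraries (log2 fold change -0.05, SE 0.074). Mt4, known from stratified epithelia, had 0 counts in all 4 libraries. The annotated length bears on the comparison. The deposited table gives Mt1 1246 bases, its whole span, since 1 of its 3 coding transcripts in GENCODE M21 is a single exon of 1085 bases. Over the spliced transcript of 3 exons (549 bases for Mt1, 536 for Mt3 and 511 for Mt2), the mean levels were 366 CPM per kilobase for Mt1, 413 for Mt3 and 8.90 for Mt2. With the lengths of the table they were 161, 208 and 7.73, in the same order.

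The annotation limits what the Mt2 count shows. An antisense gene with 1 exon, Gm45774 (chromosome 8, 94170748 to 94173412, minus strand), covers 432 of the 588 exonic bases of Mt2, or 73.5%, and leaves 156 uncovered. Gm45774 had 3 to 9 counts per library. Whether the counting used strand, and what it did with reads that fall in exons of both genes, is stated in no source used here, so the level of Mt2 is uncertain and the part of this overlap in it was not tested. In GENCODE M21 no other gene overlaps Mt1 or Mt3, and 0 of the 50-base stretches of Mt1, Mt2 and Mt3 transcripts occur in transcripts of another gene. None of the remaining 8 genes has more than 4.71% of its exonic bases in exons of a gene on the opposite strand.

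The bases before the starts of Mt1, Mt2 and Srxn1 are shown because metal and antioxidant response elements are how such genes are known to answer zinc and NRF2. Of the windows described below, Mt2 held the most metal and Srxn1 the most antioxidant response element cores, so those shown are not typical. The bases shown are the 250 upstream of the RefSeq start on GRCm38.p6, all on the plus strand. Capitals mark matches to the antioxidant response element core (TGACNNNGC or TGAGNNNGC) and to the metal response element core (TGCACNC or TGCGCNC), searched on both strands.
Mt1, chr8:94178839-94179088: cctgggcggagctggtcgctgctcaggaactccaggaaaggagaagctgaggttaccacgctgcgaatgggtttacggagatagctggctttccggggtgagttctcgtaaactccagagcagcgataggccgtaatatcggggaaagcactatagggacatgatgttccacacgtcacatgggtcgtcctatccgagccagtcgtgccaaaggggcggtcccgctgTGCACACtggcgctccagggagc
Mt2, chr8:94172368-94172617: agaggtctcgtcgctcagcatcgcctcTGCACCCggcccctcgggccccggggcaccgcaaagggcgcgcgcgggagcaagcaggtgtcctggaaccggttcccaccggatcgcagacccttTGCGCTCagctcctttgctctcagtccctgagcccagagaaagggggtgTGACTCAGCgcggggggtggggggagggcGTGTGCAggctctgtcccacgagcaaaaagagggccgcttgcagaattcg
Srxn1, chr2:152105274-152105523: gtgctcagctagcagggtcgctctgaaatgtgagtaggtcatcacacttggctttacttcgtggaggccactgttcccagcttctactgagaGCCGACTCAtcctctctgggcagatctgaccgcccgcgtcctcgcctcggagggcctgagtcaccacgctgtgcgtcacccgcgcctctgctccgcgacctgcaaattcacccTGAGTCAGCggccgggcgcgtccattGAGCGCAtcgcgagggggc

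Promoter windows of 300 bases, from 250 before to 50 after the RefSeq start, were found for 8 of the 10 genes (not Hmox1 and Gclc) and for Mt3. The Mt2 window held 4 metal response element cores, at -223, -128, -50 and 5 bases from the start by their first base on the gene's strand. It also held 1 antioxidant response element core at -79, whose first bases are also an AP-1 site (TGAGTCA, read on the opposite strand). The Mt1 window held 3 metal response element cores, at -23, 3 and 21, and 0 antioxidant response element cores. Of all 32851 promoter windows, 25.7% held at least 1 metal response element core and 0.517% held 4 or more. That cut of 4 equals the Mt2 count, and the share with 3 or more was not computed. Gclm had 3 such cores and Srxn1 and Mt3 1 each. An AP-1 site occurs in 5.20% of all windows. Srxn1 had 3 antioxidant response element cores, at -158, -45 and 29, the second of which overlaps an AP-1 site. Nfe2l2, Gclm, Slc7a11 and Mt3 had 1 each, as did 1 of the 3 windows of Txnrd1, and Nqo1 had 0. At least 1 such core occurs in 27.8% of all windows. A match is a stretch of letters and says nothing of binding. Elements further upstream, or more than 50 bases after the RefSeq start used, lie outside these windows. A count of 0 therefore holds for the window alone and does not show that a gene lacks the element.

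**Figure D3:**
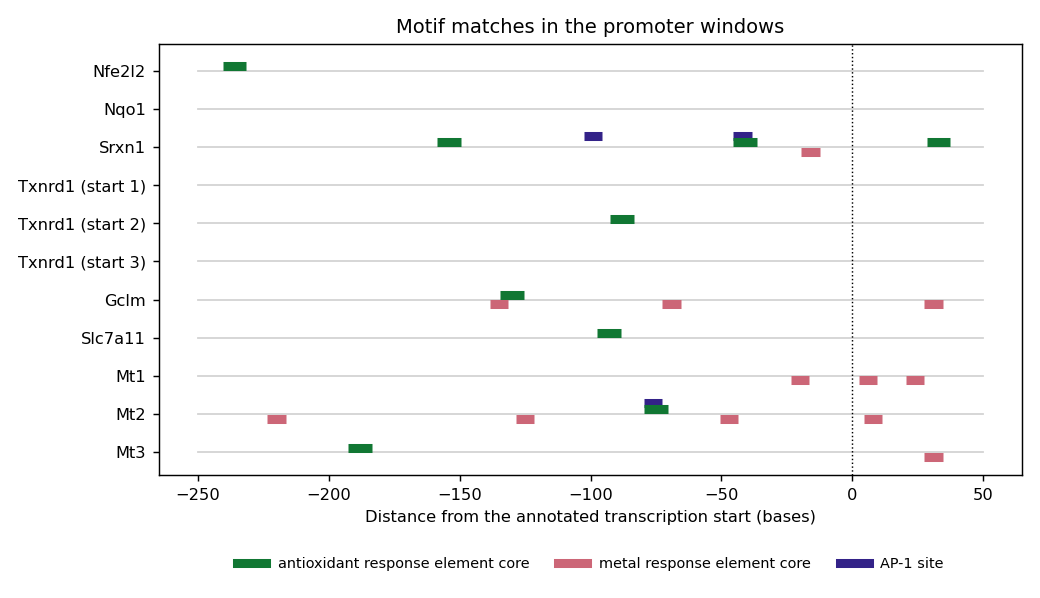
Positions of motif matches in the promoter windows, as distance in bases from the annotated start; green marks antioxidant response element cores, red metal response element cores and blue AP-1 sites, and each line is 1 window. Mt2 carries 4 red marks and 1 green mark, Mt1 carries 3 red marks, Srxn1 3 green marks, and Nqo1 none.

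Across the 10 genes, 4 had a positive and 6 a negative log2 fold change, with a median of -0.02 beside 0.00036 over all genes tested. The groups did not overlap for 4 of them, lower with Ptbp1 siRNA for Nqo1, Gclm and Mt2 and higher for Slc7a11. Over all genes tested the groups did not overlap for 31.5%, with 15.6% higher and 15.9% lower, so the share of the 10 is near the background. For 6 of the 10 the whole 95% interval lay within 0.25 of 0 on the log2 scale. This was so for 31.7% of all genes and for 65.7% of the 70 tested genes of the pathway lists below. Intervals tend to be wider at lower counts, and these shares were not matched for count. The other 4 of the 10 were Nqo1, Hmox1, Slc7a11 and Mt2. In the authors' deposited table, the log2 fold changes of the 10 ran from -0.48 for Nqo1 to 0.26 for Slc7a11, with unadjusted p-values from 0.194 to 0.959 and an adjusted p of 1.00 for each. After rounding, these log2 fold changes and unadjusted p-values equal those of the DESeq2 fit to the same counts. They are therefore not a separate analysis.

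**Figure D4:**
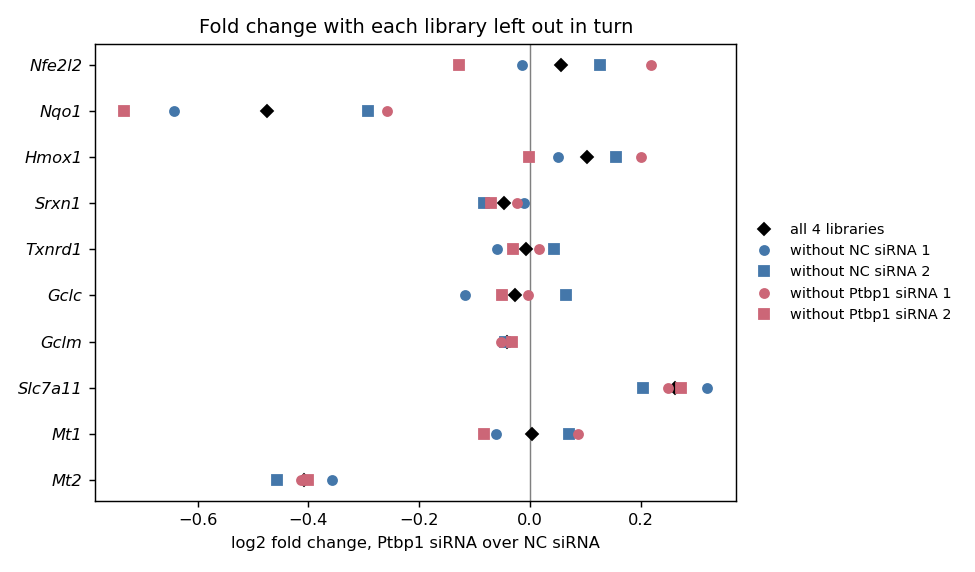
log2 fold change of the 10 genes with all 4 libraries (black diamonds) and with each library left out in turn (blue without an NC siRNA library, red without a Ptbp1 siRNA library; circles for library 1, squares for library 2). Nqo1 moves between -0.73 and -0.26 and Nfe2l2 between -0.13 and 0.22, while Gclm stays between -0.05 and -0.03.

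The wider pathways were read from 6 lists of 72 genes, of which 70 were tested and 0 were called in either direction. Their median log2 fold change was 0.0018, with 36 positive and 34 negative values. An unadjusted p under 0.05 was reached by 2 genes in edgeR, 0 in DESeq2 and 1 in limma on log2(FPKM + 1). The 2 are 2.86% of the 70, beside 3.98% of all genes tested by edgeR, so their share is no higher than the background. Over all genes it was 0.512% in DESeq2 and 4.67% in limma. The 2 were Mafk and Gpx3, named after their values were seen. Mafk, a small MAF partner of NRF2, stood at 84.0 and 81.8 CPM in the NC siRNA libraries, against 96.3 and 91.7 CPM in the Ptbp1 siRNA libraries (log2 fold change 0.18, SE 0.071, edgeR adjusted p = 1.00). Gpx3, the secreted glutathione peroxidase, stood at 23.7 and 31.0 CPM in the NC siRNA libraries, against 23.1 and 20.9 CPM in the Ptbp1 siRNA libraries (log2 fold change -0.31, SE 0.13, edgeR adjusted p = 1.00). NC siRNA 2, the highest library for Gpx3, is also the library in which the summed level of choroid plexus markers stood apart. A link between that sum and Gpx3 was not tested. Without NC siRNA 2 the log2 fold change of Gpx3 was -0.11 and that of Mafk 0.16. The value of Gpx3 was -0.24 without Ptbp1 siRNA 2, and that of Mafk was 0.15 without Ptbp1 siRNA 1. Other omissions made both changes larger than in the full fit. Leaving out NC siRNA 1 gave -0.50 for Gpx3 and 0.20 for Mafk. Gpx3 stood at -0.39 once Ptbp1 siRNA 1 was dropped. Mafk stood at 0.22 once Ptbp1 siRNA 2 was dropped.

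Of 11 regulators and partners of NRF2, 0 were called (median log2 fold change 0.0023). The members with the highest counts were Sqstm1, an autophagy receptor that binds KEAP1, with log2 fold change 0.015 (SE 0.064), the related factor gene Nfe2l1 with 0.0023 (SE 0.065), and Gsk3b, a kinase that marks NRF2 for degradation, with -0.02 (SE 0.065). Keap1 itself, named after its value was seen, had 0.018 (SE 0.079). Of 18 genes of glutathione synthesis and use, 0 were called (median -0.0073). After Slc3a2, the highest were the glutathione peroxidases Gpx4, which reduces lipid peroxides, with -0.017 (SE 0.071), and Gpx1 with 0.10 (SE 0.063). Gpx1 stood at 284 ± 12.9 CPM in the NC siRNA libraries, against 305 ± 1.53 CPM in the Ptbp1 siRNA libraries (mean ± SD, n = 2).

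Of 16 genes of thioredoxin, peroxiredoxins, superoxide dismutases and catalase, 0 were called (median -0.0044). Txnip, the thioredoxin-binding inhibitor, had the highest counts, at 1196 ± 80.9 and 1160 ± 110 CPM (mean ± SD, n = 2), with a log2 fold change of -0.04 (SE 0.072). The peroxiredoxin genes Prdx6 and Prdx2 had -0.015 (SE 0.062) and 0.05 (SE 0.071). Of 7 enzymes that make NADPH or feed its pathway, 0 were called (median 0.018), with Tkt at 0.018 (SE 0.066), Pgls at 0.09 (SE 0.072) and Pgd at 0.0048 (SE 0.072).

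Of 10 genes of haem and iron handling, 0 were called (median -0.03). The ferritin chains Fth1 and Ftl1 had -0.06 (SE 0.060) and -0.03 (SE 0.061), and Fech, the enzyme that puts iron into haem, 0.0036 (SE 0.075). Fth1 stood at 1001 and 1061 CPM in the NC siRNA libraries, against 993 and 987 CPM in the Ptbp1 siRNA libraries. Of 10 genes of zinc handling and metallothioneins, 8 were tested and 0 called (median -0.0013). Mt4 and the zinc transporter family gene Slc30a10 lay below the count filter. Beside Mt3, the zinc importers Slc39a1 and Slc39a6 were highest, with 0.0052 (SE 0.062) and -0.0077 (SE 0.068).

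**Figure D5:**
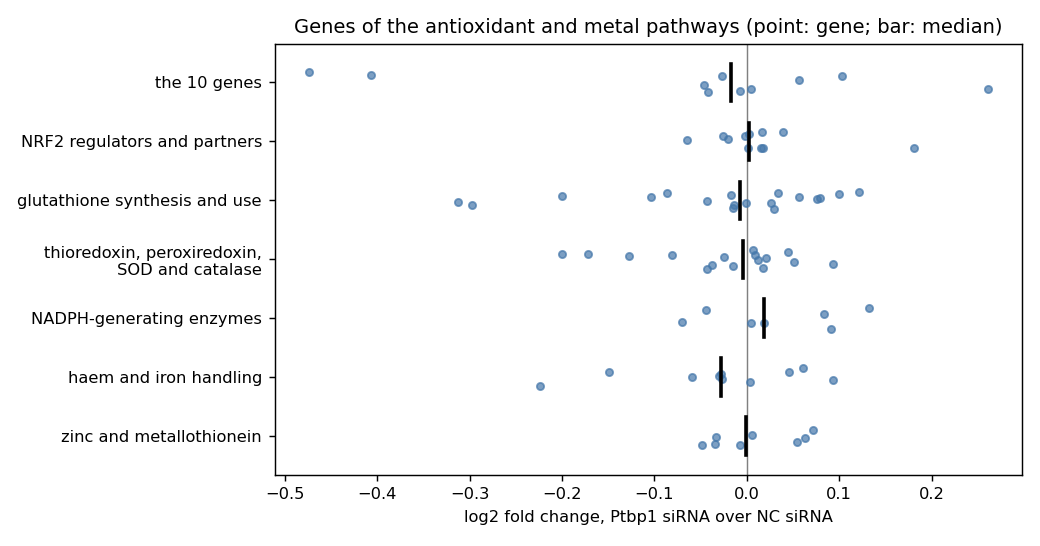
log2 fold change, Ptbp1 siRNA over NC siRNA, of each tested gene (points) in the 10-gene set and in 6 pathway lists, with the median of each as a black bar; vertical scatter has no meaning. The medians lie between -0.03 and 0.02, and the lowest points are Nqo1 at -0.47 and Mt2 at -0.41.

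Markers of other cell types were present beside those of astrocytes. All 8 astrocyte markers had counts in every library, with a summed level of 2144 and 2022 CPM with NC siRNA and 2113 and 1855 CPM with Ptbp1 siRNA. Of these 0 were called, and 5 had a negative and 3 a positive log2 fold change (median -0.04). Slc1a2 was the lowest at -0.26 (unadjusted p = 0.0136 by edgeR) and S100b the highest at 0.30 (unadjusted p = 0.378 by edgeR). The 6 fibroblast and mural markers summed to 2488 to 2762 CPM with NC siRNA and to 2057 to 2461 CPM with Ptbp1 siRNA. All 6 had a negative log2 fold change (median -0.15, beside 0.00036 over all genes tested) and 0 were called, with Col1a1 at -0.35 (unadjusted p = 0.0016 by edgeR) and Col1a2 at -0.25 (unadjusted p = 0.00412 by edgeR) the lowest. All 4 ependymal markers were negative too (median -0.20, 0 called), with Rsph1 at -0.30 (unadjusted p = 0.0357 by edgeR) and a summed level of 349.7 and 364 CPM with NC siRNA and 327 and 338 CPM with Ptbp1 siRNA. The 6 choroid plexus markers, of which 5 were tested and 0 called, all 5 with a negative log2 fold change (median -1.90), summed to 449 CPM in NC siRNA 2 and to 77.1 to 94.95 CPM in the other libraries. Most of the sum in NC siRNA 2 was Ttr, at 348 CPM, against 38.8 to 52.3 CPM in the other libraries. Otx2 did not stand apart, at 22.9 and 26.3 against 23.0 and 26.0 CPM (log2 fold change -0.0042). Without NC siRNA 2, the log2 fold change of Nqo1 was -0.29 and that of Mt2 was -0.46. The oligodendrocyte lineage markers summed to 352 and 347 CPM with NC siRNA and 350 and 319 CPM with Ptbp1 siRNA (5 of 6 negative, median -0.07). In the same order, the 6 neuron markers summed to 254, 242, 258 and 245 CPM, with 2 of the 3 tested negative (median -0.01). Most of that sum was Map2, at 146 to 166 CPM, and Stmn2, at 81.5 to 85.0 CPM. Rbfox3, Dcx and Snap25 lay below the count filter, with at most 10 counts in any library. The 3 endothelial markers summed to 38.7, 34.0, 39.3 and 32.4 CPM, with 1 of the 2 tested negative (median 0.22). Nearly all of that sum was Cdh5, at 30.9 to 38.5 CPM (log2 fold change -0.04). Pecam1 had only 11 to 22 counts per library (log2 fold change 0.47), and Cldn5 had 0 counts in all 4. None of the oligodendrocyte lineage, neuron or endothelial markers was called. The part that any such cells have in the levels of the 10 genes was not tested.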

How the data were processed

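Per the labels' protocols, total RNA of mouse astrocytes was isolated with an RNeasy kit and made into libraries with a SMARTer mRNA kit. The builds GRCm38 and mm10 come from the submitters' processing notes. No source used here gives the aligner, counter, strand setting or annotation release. The authors deposited whole-number counts per gene and library, FPKM, group means of scaled counts (a signal, not used here), and a log2 fold change with its p-value and adjusted p-value. The gene lengths and coordinates of the 10 genes equal those of GENCODE M21.

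The test was that of edgeR 4.0.16 under R 4.3.3 on the counts (quasi-likelihood, TMM, filterByExpr, group as the only term, two-sided), with residual and prior degrees of freedom of 2 and 14.03. Standard errors and 95% intervals come from the quasi-F statistic, whose spread for a gene draws more on all genes than on its own libraries. The biological coefficient of variation was 6.42%. The steps were tested on simulated data, with changes larger than any estimated for the 10 genes. That test does not show whether changes as small as theirs would be called. The members and lists were chosen with earlier results of these data known. The text names the 10 genes, Ptbp1, the 3 list members with the highest mean CPM where none was called, and the 3 nearest patterns. Alternatives were RLE and no scaling, DESeq2 1.42.0, limma 3.58.1 on log2(FPKM + 1), other filters, a replicate block and leaving out each library. Spliced lengths were chosen after seeing the data. Promoters are from RefSeq (GRCm38.p6). Counting intervals cover counting error only, and counts can include PCR copies.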

Additional observations from a re-analysis of the deposited data

How the results depend on the processing

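The count of the 10 genes called was 0, and that of the list genes 0, under each of the 11 alternatives run. Over all genes, the count of 4 became 50 when no filter was set, 36 with the replicate block and 34 to 75 with 1 library left out. By limma on log2(FPKM + 1) it was 0, with an unadjusted p under 0.05 for 764 genes. It was 4 under RLE scaling, no scaling factor, DESeq2 and a mean of at least 1 CPM. For Ptbp1 the log2 fold change was -0.57 with limma, with an adjusted p of 0.485, and -0.61 to -0.55 with 1 library left out.

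Gclm, Mt2, Nqo1, Slc7a11 and Srxn1 kept their sign under all 11 alternatives. The sign turned in some fits for the others, whose ranges with 1 library left out were -0.12 to 0.066 for Gclc, -0.0011 to 0.20 for Hmox1, -0.082 to 0.087 for Mt1, -0.13 to 0.22 for Nfe2l2 and -0.059 to 0.044 for Txnrd1. Mt1 was also at -0.0016 with no scaling factor and at -0.00071 with no filter. A fit without a library leaves an arm with 1 sample, which is assumed to vary like the others. The cause of these turns was not tested.

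The replicate numbers are shared by the groups, but no label says that a number marks a shared culture or day. The deviations of same-numbered libraries from their group means correlated at r = 0.091 over genes. Library 2 was above library 1 in both groups for 6 of the 10 genes (Nfe2l2, Nqo1, Hmox1, Gclc, Txnrd1 and Mt1) and for 27.0% of all genes, and below it in both for 3 of the 10 (Gclm, Slc7a11 and Mt2) and for 28.4% of all genes. With the replicate block the log2 fold changes were 0.05 for Nfe2l2, 0.10 for Hmox1 and 0.26 for Slc7a11, and 0 of the 10 were called. Counts of 42 to 86 per library for Nqo1 and Mt2 limit their precision, with intervals that reach from a fold of 0.483 and 0.530 to 1.07.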

Other observations

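Other genes of redox and protein stress were looked at after the values above had been seen. Of 9 NADPH oxidase genes, the membrane enzymes and helpers that make superoxide, 7 were tested and 0 called. The log2 fold change was -0.08 (SE 0.074) for Cyba, the shared membrane subunit, for Cybb, the catalytic subunit of phagocytes, 0.04 (SE 0.094), and for Ncf1, a cytosolic organiser subunit, 0.03 (SE 0.16). Of 10 selenoprotein genes, which need the same trace element as thioredoxin reductase, 0 were called, and 8 had a negative value, with a median of -0.06. Selenof had -0.06 (SE 0.065), Selenow 0.03 (SE 0.070) and Selenot -0.05 (SE 0.061). Of 10 heat shock genes 0 were called. Hspa8, the constitutive chaperone with the highest counts of the list, had 0.05 (SE 0.059), Hsp90aa1, the inducible cytosolic HSP90 chaperone, -0.00045 (SE 0.059), and Hspd1, the mitochondrial chaperonin, 0.09 (SE 0.060). An unadjusted p under 0.05 was reached by 0 genes of these 3 lists in edgeR, DESeq2 and limma on log2(FPKM + 1) alike.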
